A study of Mus musculus with 12 samples.

Results

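RNA of 3 mouse pups with a conditional Egfr knockout was compared with that of 3 control pups at postnatal day 5, with the rostral and the caudal library of each pup combined into 1 value per animal. The series holds 12 libraries, and all 12 entered the comparison as 6 animals with 2 libraries each. Counts were brought to a common library size (CPM), and for each T number the rostral and the caudal CPM of a gene were averaged with equal weight, so that n is 3 animals a side. The controls were T4, T8 and T70, labelled as carrying 1 floxed and 1 intact Egfr allele (EgfrF/+) in the protocol and as WT in the genotype field. The knockout animals were T3, T6 and T80 (Nestin-EgfrF/F, here cKO), with both Egfr alleles floxed and a recombinase driven by Nestin. The Nestin regulatory sequence used in such lines is active in neural stem and progenitor cells, so cells of other origin, such as microglia, vessels and meninges, are not its intended target. Which Nestin line was used, and whether the controls carry the recombinase, is not stated in those labels. An effect of the recombinase itself and one of Egfr loss cannot be told apart if the controls lack it. Nothing in the labels says whether the pups were littermates, and each animal was taken as 1 replicate.

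The tissue was cortex with the hippocampal formation, freed of the ventral forebrain and cut into a rostral and a caudal piece. EGFR is a receptor tyrosine kinase that binds ligands of the EGF family, such as TGF-alpha and HB-EGF, and signals through the ERK cascade among other routes. In the forebrain around birth it marks progenitors that turn to making glia, and it is known for its part in the production of astrocytes and oligodendrocyte precursors. Astrocytes and oligodendrocytes are generated in large numbers in the cortex during the first postnatal weeks, while microglia settle there from outside the neural lineage.

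Total counts ran from 43810458 to 87170315 per library, and 22844 genes were tested. Several cKO libraries stood apart from their group. Genes encoded in the mitochondrial genome took 8.18% of the counts of the cKO rostral library of T6, against 1.85% to 3.98% in the other 11. In the cKO rostral library of T3, the choroid plexus gene Ttr reached 26689 counts, against 3 to 26 in the other rostral libraries. A position score was built from 2492 genes that differed between the control pieces and was set to 0 for control rostral and 1 for control caudal tissue. On it the cKO rostral libraries scored 0.854 (T3), -0.0796 (T6) and 0.638 (T80), and the caudal ones 0.557, 1.14 and 0.812. The 2 libraries of T3 thus stood in the reverse order to their labels, and whether they were exchanged cannot be settled here. The animal means do not depend on it, whereas every value given for the rostral or the caudal pieces does. The animal means of the score were 0.554, 0.445 and 0.501 in the controls and 0.705, 0.531 and 0.725 in the cKO animals, and the T6 mean lay within the control range. Of the genes tested, 10.9% were in the score, as were 26 of the 68 genes that passed the genotype test (38.2%). The part of tissue position in the genotype differences was not tested. The spread between animals was unequal too, with a median SD of 0.0692 on the log2 scale over genes in the controls and 0.135 in the cKO animals. From Xist and Y-linked transcripts, 2 controls were female and 1 male, and 1 cKO animal was female and 2 were male.

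Egfr was lower in every cKO animal than in any control. The gene (ENSMUSG00000020122.17, GRCm39 chr11:16702203-16868158, plus strand) measured 43.5, 39.5 and 44.7 CPM in the controls and 8.02, 10.5 and 11.1 CPM in the cKO animals. The means were 42.5 ± 2.72 and 9.87 ± 1.63 CPM (SD, n = 3 each), so that 23.2% of the control level remained. The log2 fold change, cKO minus control throughout, was -2.11 with a standard error (SE) of 0.125. The adjusted p was 0.005 by edgeR's quasi-likelihood test with Benjamini-Hochberg adjustment over all genes tested. The fall was of like size in the rostral (-2.20) and the caudal pieces (-2.16). An exact two-sided permutation test over the 6 animals gave p = 0.1, the smallest that 3 against 3 allows. The counts cover the whole gene, and the labels do not say which exons the floxed allele loses.

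Besides Egfr, the genes that fell included 9 on the astrocyte list, Ednrb and Olig1. The genes that rose included the receptors Msr1, C5ar1 and C3ar1 of myeloid cells, the progenitor gene Eomes and the noncoding RNA Meg3. In all, 68 of 22844 genes (0.298%) passed an adjusted p of 0.05, with 26 higher (0.114%) and 42 lower (0.184%) in the cKO animals. At an unadjusted p under 0.05 there were 3492 genes, 1888 higher and 1604 lower. The animals of the genotypes did not overlap for any of the 68, which also held for 25.7% of all genes tested. The direction was the same in both pieces for all 68, against 68.8% of all genes. For 16 of the 26 higher and 33 of the 42 lower genes, all 6 cKO libraries lay beyond all 6 control libraries, which held for 3.62% of all genes. The 68 were called from these same animals and pieces, so these shares give them no separate support.

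The number of genes that passed depended strongly on single animals. It was 0, 1 and 2 without the control T4, T8 or T70, and 49, 716 and 37 without the cKO animal T3, T6 or T80. All 68 genes kept their direction, which leaving out 1 animal could hardly reverse, since their animals did not overlap. With sex as a covariate 4 passed, namely Egfr, Ednrb, Olig1 and 1 copy of 7SK. DESeq2 called 825. In a limma fit of single libraries with the animal as a replicate block, 26 of the 68 passed, among them Egfr, Ednrb, Olig1, Olig2, Fgfbp3, Apln, Msr1, C5ar1, C3ar1, Hmox1, Galnt6 and Meg3.

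**Figure D1:**
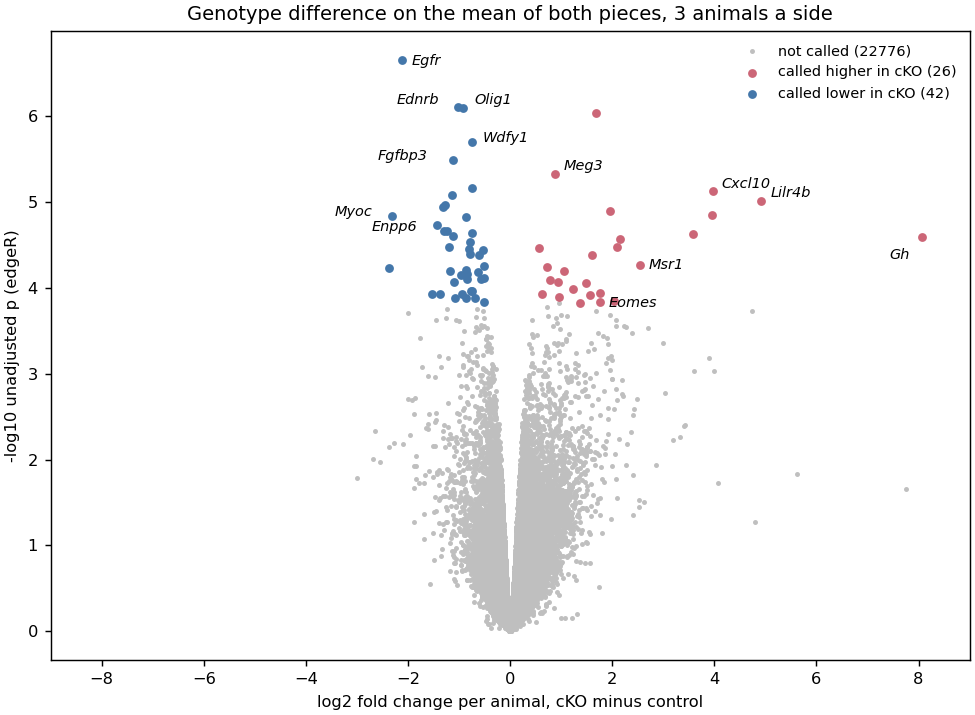
Each point is 1 of 22844 genes, with the log2 fold change between cKO and control animals (3 each, mean of both pieces) on the x axis and -log10 of the unadjusted edgeR p on the y axis. The 26 called higher and 42 called lower genes are coloured, and Egfr has the smallest p. The x position of Gh depends on the prior count, since its control libraries were all at 0.

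Astrocyte genes made up the largest set among the listed genes that fell. Of 28 astrocyte genes, all tested, 9 fell and none rose at an adjusted p of 0.05, while 0.184% of all genes fell. On the fitted scale 27 were below 0, with a median log2 fold change of -0.60, against a median of 0.02 over all genes tested, of which 46.8% were below 0. In bulk tissue, fewer astrocytes and less RNA of these genes per astrocyte cannot be told apart.

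Among the channels and carriers of astrocytes, Kcnj10, the Kir4.1 potassium channel that clears extracellular potassium, measured 95.5, 94.4 and 91.9 CPM in the controls and 54.0, 61.6 and 52.8 CPM in the cKO animals. Its log2 fold change was -0.75 (SE 0.0704, adjusted p = 0.0186). The fall was seen in every cKO animal, but the caudal cKO library of T6, at 79.6 CPM, lay inside the control caudal range of 74.4 to 79.9 CPM. Aqp4, the water channel of astrocyte endfeet, went from 242, 213 and 227 CPM to 140, 117 and 137 CPM, with -0.80 on the log2 scale (SE 0.0942, adjusted p = 0.0267). Slc7a10, the carrier Asc-1 for small neutral amino acids, went from 17.4, 15.4 and 17.4 CPM to 7.68, 5.66 and 6.96 CPM (-1.31, SE 0.132, adjusted p = 0.0202). No cKO animal came near the control range for these carriers. The GABA carrier gene Slc6a11, which is outside the list, fell as well, from 276 to 291 CPM in the controls to 189 to 203 CPM in the cKO animals (-0.54, adjusted p = 0.0267). The urea carrier gene Slc14a1 fell from 14.0, 13.5 and 14.4 CPM to 7.197, 6.23 and 5.66 CPM (-1.14, SE 0.11, adjusted p = 0.0186).

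Receptors and enzymes typical of astrocytes moved the same way. Gpr37l1, an orphan receptor of astrocytes, had one of the largest falls of the list: 43.1, 38.9 and 37.5 CPM in the controls and 17.97, 10.8 and 17.6 CPM in the cKO animals (-1.37, SE 0.193, adjusted p = 0.0457). Aldh1l1, the folate enzyme widely used to mark astrocytes, measured 90.5, 83.1 and 87.3 CPM against 49.4, 36.6 and 49.0 CPM (-0.95, SE 0.125, adjusted p = 0.0369). In both genes the lowest cKO animal was T6. Mfge8, a secreted protein that bridges phagocytes to dying cells, fell by 0.79, Pla2g7 by 0.95, Ttyh1 by 0.52 and S1pr1, a sphingosine-1-phosphate receptor, by 0.51 on the log2 scale.

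The endothelin receptor gene Ednrb, which glia and their progenitors express, stood with Egfr and Olig1 among the genes with the smallest p. It measured 192, 168 and 183 CPM in the controls and 91.3, 90.9 and 85.2 CPM in the cKO animals, 49.3% of control (-1.03, SE 0.072, adjusted p = 0.00515). The cKO values were close together, and the difference was -1.12 in the rostral and -0.95 in the caudal pieces.

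Not every astrocyte gene was lower. The glutamate carriers Slc1a3 (-0.16, adjusted p = 0.413) and Slc1a2 (-0.15, adjusted p = 0.455) and the astrocyte transcription factor Sox9 (-0.15, adjusted p = 0.419) did not pass the test. Slc1a3 measured 624, 606 and 653 CPM in the controls and 632, 538 and 523 CPM in the cKO animals, so the groups overlapped. The gap junction gene Gjb6 was the 1 member above 0, at 0.45 with an adjusted p of 0.579.

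Across the libraries, the mean of the astrocyte list relative to control tissue of the same piece was -0.20, -1.76 and -0.55 on the log2 scale in the rostral cKO pieces of T3, T6 and T80. In the caudal pieces it was -0.71, -0.24 and -0.46. Every cKO library was below 0, and the rostral library of T6 was far lower than the others. Without T6, 16 astrocyte genes passed and the list median was -0.50, while 716 of all 23352 genes tested passed. Without T3, 3 of the list passed with a median of -0.70, while 49 of all 23401 did. With sex as a covariate none of the list passed, and with the animal as a replicate block 1 did, Gpr37l1.

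**Figure D2:**
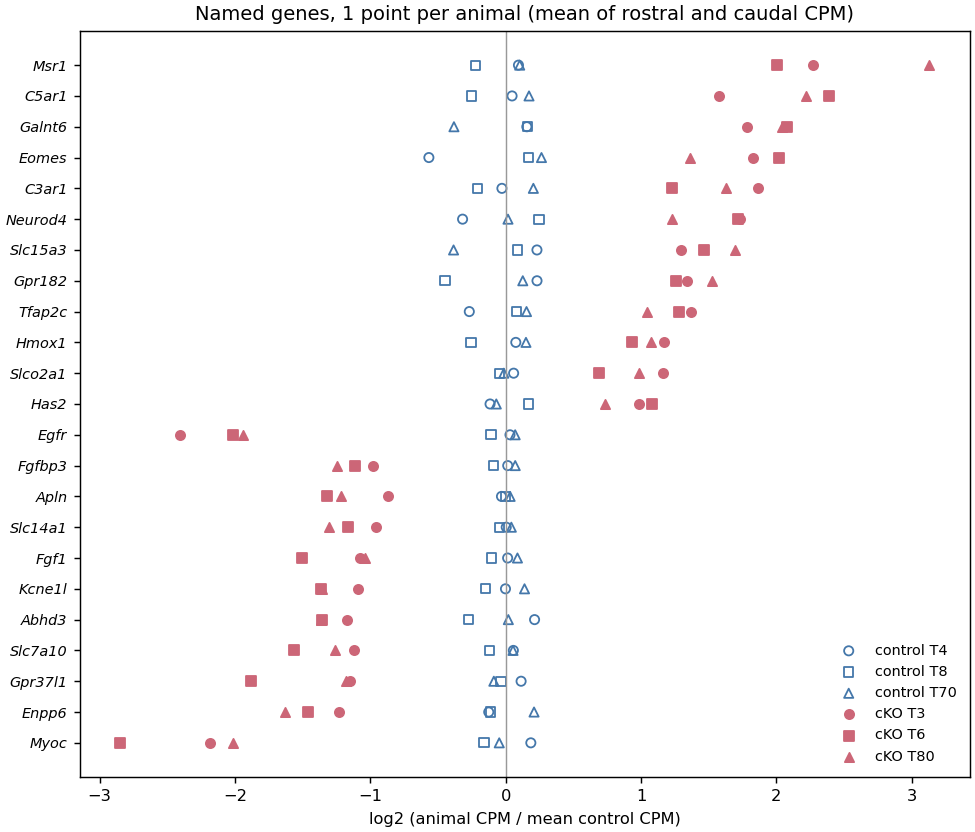
Each row is a named gene and each point 1 animal, as log2 of its CPM (mean of both pieces) over the mean of the 3 controls. Open symbols are controls and filled symbols cKO animals. The filled symbols lie apart from the open ones in every row, with 12 genes to the right and 11, Egfr included, to the left. Except for Egfr, such a gap was a condition for a gene to be shown.

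Some genes of each stage of the oligodendrocyte lineage fell, among them the precursor factors Olig1 and Olig2, the differentiation gene Enpp6 and the myelin genes Fa2h and Mag. Of 16 precursor genes tested 3 fell and none rose, with a median of -0.39 and 13 below 0. Of 12 genes of newly formed oligodendrocytes 1 fell and none rose, with a median of -0.38 and all 12 below 0. Of 13 myelin genes tested 3 fell and none rose, with a median of -0.51 and 10 below 0. Over all genes tested, 0.184% fell and 46.8% were below 0.

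Olig1 encodes a transcription factor of the lineage and had the smallest standard error of the listed genes that fell. It measured 105, 104 and 104 CPM in the controls and 56.5, 52.7 and 57.2 CPM in the cKO animals, 53.1% of control (-0.92, SE 0.0645, adjusted p = 0.00515). The difference was -1.14 in the rostral and -0.68 in the caudal pieces. Olig2, its neighbour on chromosome 16 and a factor needed to specify the lineage, measured 33.8, 33.3 and 34.2 CPM against 20.9, 24.4 and 21.4 CPM (-0.61, SE 0.0733, adjusted p = 0.0281). Tmem100 fell by 0.84 and Sox8, a SoxE factor outside the lists, by 0.75 (adjusted p = 0.0362 and 0.0242). Both Olig genes were lower in every cKO animal than in any control. Markers of the precursor cell surface differed less: Pdgfra, the PDGF receptor that defines precursors, was at -0.20 (adjusted p = 0.267) and Cspg4, which encodes NG2, at 0.05 (adjusted p = 0.76). The Cspg4 values of 40.7, 35.8 and 35.3 CPM in the controls and 37.9, 38.7 and 39.2 CPM in the cKO animals overlapped. Sox10, a factor of the whole lineage, was at -0.42 with an adjusted p of 0.134, and its animals did not overlap.

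Enpp6, a choline phosphodiesterase that marks oligodendrocytes as they begin to differentiate, measured 5.37, 5.43 and 6.77 CPM in the controls and 2.49, 2.13 and 1.89 CPM in the cKO animals (-1.44, SE 0.155, adjusted p = 0.0235). All 6 cKO libraries lay below all 6 control libraries. Other genes of this stage missed the threshold: Bcas1 was at -0.91 (adjusted p = 0.0697), Myrf, the factor that switches on myelin genes, at -0.86 (adjusted p = 0.109), and Gpr17, a receptor of the transition stage, at -0.65 (adjusted p = 0.146).

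Fa2h, which hydroxylates myelin lipids, measured 1.31, 1.26 and 1.34 CPM against 0.582, 0.579 and 0.575 CPM (-1.17, SE 0.151, adjusted p = 0.035). In both genotypes the animal means were close together, but the single cKO libraries ran from 0.413 to 0.737 CPM. Mag, an adhesion protein of myelin, fell by 1.08 (SE 0.155, adjusted p = 0.0471). Mbp, at 71.1, 70.2 and 68.0 CPM in the controls and 53.9, 45.8 and 48.2 CPM in the cKO animals, did not pass (-0.50, adjusted p = 0.0669).

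In the lists' library means the oligodendrocyte precursor genes lay between -0.54 and -0.12 in all 6 cKO libraries, and the myelin genes between -1.01 and -0.21. The lowest of both was again the rostral library of T6. Without T6, 6 precursor, 2 newly formed and 4 myelin genes were lower, while 328 of all 23352 genes tested were. Without T3, 1 of each list was, while 27 of all 23401 were. With the animal as a replicate block Enpp6 did not pass (adjusted p = 0.0519 by limma), and 3 precursor and 3 myelin genes were lower.

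Promoter stretches of Enpp6 and Olig2 are shown because these 2 fell together and their windows each hold AACAAT, a core that SOX factors bind. They are the 250 bases before the RefSeq start site, 5′ to 3′ on the gene's strand (build GRCm38.p6, not the GRCm39 of the counts), at chr8:46986637-46986886 (plus strand) and chr16:91225300-91225549 (plus strand). Capitals mark AACAAT or its reverse complement.
Enpp6: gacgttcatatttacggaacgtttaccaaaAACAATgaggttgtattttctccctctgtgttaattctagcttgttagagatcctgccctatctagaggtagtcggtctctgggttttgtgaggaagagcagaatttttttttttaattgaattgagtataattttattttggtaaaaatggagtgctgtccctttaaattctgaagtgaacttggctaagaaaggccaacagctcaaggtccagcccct
Olig2: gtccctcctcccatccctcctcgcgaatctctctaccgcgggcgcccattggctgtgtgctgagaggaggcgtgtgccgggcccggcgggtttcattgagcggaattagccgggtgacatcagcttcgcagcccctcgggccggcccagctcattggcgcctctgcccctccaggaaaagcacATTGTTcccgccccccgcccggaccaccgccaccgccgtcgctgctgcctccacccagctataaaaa
Such a match is common. Searched on both strands in windows of 300 bases, 50 of them after the start, AACAAT was in 3 of 32 windows of the 28 genes that fell and had an entry (9.38%), and in 10.7% of all 32851 promoter windows.

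Genes of lipid synthesis accompanied the glial genes without passing the test, except Scd1. Scd1, which makes monounsaturated fatty acids, fell from 134, 128 and 142 CPM to 80.9, 62.2 and 78.0 CPM (-0.87, SE 0.111, adjusted p = 0.035). Of 21 genes of cholesterol synthesis none passed in either direction, 20 were below 0 and the median was -0.35. Over all genes tested, 46.8% were below 0. Relative to controls, the animal means of the list for T3, T6 and T80 were -0.16, -0.72 and -0.25. T6 was the lowest for this list as it was for astrocytes, and without it the median was -0.19 and 4 genes were lower. Over all genes, 328 of 23352 were lower without T6.

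Receptors and secreted factors of other families also fell. Fgfbp3 encodes a carrier protein that releases FGF from the matrix, and measured 22.0, 20.5 and 22.9 CPM in the controls and 11.02, 10.04 and 9.18 CPM in the cKO animals (-1.12, SE 0.0946, adjusted p = 0.0121). Fgf1, a ligand of all FGF receptors, fell from 18.03, 16.6 and 19.0 CPM to 8.47, 6.30 and 8.68 CPM (-1.19, SE 0.14, adjusted p = 0.0267). These were the 2 of 14 genes of FGF signalling that passed, and the list median was 0.01. Over all genes tested, 0.184% passed as lower. With the animal as a replicate block only Fgfbp3 passed. Fgfr3, the FGF receptor of astrocytes, was at -1.001 (adjusted p = 0.0621) and Fgfr1 at 0.38 (adjusted p = 0.0792), so the receptors lay on opposite sides of 0. Apln, the apelin ligand made by endothelial tip cells and other cells, measured 22.1, 22.5 and 23.1 CPM against 12.4, 9.02 and 9.71 CPM (-1.13, SE 0.127, adjusted p = 0.0242). It was the 1 gene of 12 on the list of tip cell and angiogenic genes that passed, and no gene of the 13 on the endothelial list did, whose median was -0.00114.

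Myoc had the largest fall among genes that passed the test with a mean of 1 CPM or more. Myocilin is a secreted protein best known from the eye, and it measured 3.02, 2.38 and 2.57 CPM in the controls and 0.583, 0.369 and 0.657 CPM in the cKO animals (-2.31, SE 0.241, adjusted p = 0.0202). It differed from most called genes in that its caudal difference (-2.76) was larger than its rostral one (-1.30). Kcne1l, an accessory subunit of potassium channels, fell by 1.27 (SE 0.127) and Abhd3, a lipase that acts on phospholipids, by 1.30 (SE 0.144), with adjusted p of 0.0202 and 0.0242. Wdfy1, an adaptor of endosomes, was close to equal in both pieces (-0.75 rostral, -0.73 caudal). Its animals measured 81.4, 83.0 and 83.3 CPM against 49.0, 48.4 and 51.0 CPM, with an adjusted p of 0.00909. Kcne1l and Apln are on chromosome X, and the share of the sexes differed between the genotypes. The part of sex in these values was not tested gene by gene beyond the covariate fit, in which both did not pass.

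Among the genes that passed the test as higher, the receptors Msr1 and C5ar1 of microglia and macrophages had the largest fold changes at a mean of 1 CPM or more. Msr1, a scavenger receptor of macrophages, measured 0.503, 0.404 and 0.506 CPM in the controls and 2.28, 1.89 and 4.12 CPM in the cKO animals (2.55, SE 0.32, adjusted p = 0.0349). C5ar1, the receptor of complement fragment C5a, measured 0.451, 0.367 and 0.492 CPM against 1.30, 2.29 and 2.03 CPM (2.09, SE 0.246, adjusted p = 0.0267). C3ar1, the receptor of fragment C3a, measured 2.42, 2.13 and 2.84 CPM against 8.96, 5.77 and 7.60 CPM (1.60, SE 0.193, adjusted p = 0.0281). For all 3 receptors every cKO library was above every control library, and the rostral difference exceeded the caudal one. Slc15a3, a lysosomal carrier of histidine and peptides found in immune cells, rose by 1.48 (SE 0.2, adjusted p = 0.0395). Hmox1, the inducible heme oxygenase, rose from 4.57, 3.63 and 4.81 CPM to 9.78, 8.30 and 9.15 CPM (1.06, SE 0.136, adjusted p = 0.035).

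Msr1 and Hmox1 were the 2 of 17 genes of activated microglia that passed, with 14 above 0 and a median of 0.38. Of all genes, 53.2% were above 0 and 0.114% passed as higher. Others on the list were as large but more scattered. Spp1 measured 6.19, 6.65 and 12.5 CPM in the controls and 31.4, 29.8 and 61.4 CPM in the cKO animals (2.28, adjusted p = 0.0669). Gpnmb measured 0.994, 0.839 and 2.10 CPM against 27.4, 2.63 and 12.2 CPM (3.43, adjusted p = 0.176), with T6 far below the other cKO animals. Without T6, 5 genes of this list were higher, and without T3 none was. Over all genes, 388 of 23352 were higher without T6 and 22 of 23401 without T3.

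Of 17 genes of resting microglia none passed, 11 were above 0 and the median was 0.28, while 53.2% of all genes tested were above 0. P2ry12, the ADP receptor that marks resting microglia, measured 16.7, 12.7 and 16.2 CPM in the controls and 13.2, 8.96 and 8.36 CPM in the cKO animals (-0.58, adjusted p = 0.253). The complement gene C1qb, at 9.94, 7.74 and 9.89 CPM against 21.1, 12.3 and 18.3 CPM, was above 0 (0.91, adjusted p = 0.146). The list means of T3, T6 and T80 were 0.52, -0.24 and 0.27, so that the cKO animals lay on both sides of the controls. Without T6, 5 of its genes were higher, while 388 of all 23352 genes tested were.

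Lilr4b and Lilrb4a, neighbouring inhibitory receptor genes of leukocytes on chromosome 10, were both among the 26 higher genes. So was Gm49339, a gene model whose span on the same strand covers both, so it is not a separate neighbour. Their levels are uncertain, since they overlap or are near-identical copies and how reads shared between genes were counted is not given. Lilr4b, Lilrb4a and Gm49339 measured at most 0.108 CPM in any control and 0.431 to 1.56 CPM in the cKO animals. Cxcl10, an interferon-induced chemokine, was the 1 gene of 17 on the reactive astrocyte list that passed. It measured 0.0179, 0.0376 and 0.0158 CPM in the controls and 0.339, 0.439 and 0.351 CPM in the cKO animals (3.97, SE 0.378, adjusted p = 0.0186). Its fold change rests on few reads in the controls. The reactive astrocyte list had 15 of 17 genes above 0 and a median of 0.56. Over all genes tested, 53.2% were above 0 and 0.114% passed as higher. Serpina3n, an acute-phase protease inhibitor, was at 0.96 and just missed the threshold, while Gfap, the intermediate filament of reactive astrocytes, was at 0.26 (adjusted p = 0.328). Gfap measured 110, 101 and 111 CPM in the controls and 143, 109 and 132 CPM in the cKO animals, and T6 lay within the control range. Without T6, 6 genes of the list were higher, while 388 of all 23352 genes tested were.

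The interferon list itself was raised in 1 cKO animal. Of 16 genes none passed, 15 were above 0 and the median was 0.51, while 53.2% of all genes tested were above 0. Animals T3, T6 and T80 had list means of -0.09, -0.03 and 0.86, and within T80 the mean was 1.30 in the rostral and 0.30 in the caudal library. Ifi207, a member of the interferon-inducible p200 family outside the list, did pass, at 0.361, 0.195 and 0.292 CPM in the controls and 1.13, 1.35 and 1.29 CPM in the cKO animals (2.14, SE 0.244, adjusted p = 0.0246). Unlike the list, Ifi207 and Cxcl10 were higher in all 3 cKO animals.

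Promoter stretches of Cxcl10, Ifi207 and the progenitor gene Eomes are shown because they are the higher genes whose windows hold a pair of GAAA with 2 bases between them, the core of the interferon-stimulated response element (ISRE). Each is the 250 bases before the RefSeq start site, 5′ to 3′ on the gene's strand, in build GRCm38.p6: chr5:92348890-92349139 (minus strand), chr1:173741810-173742059 (minus strand) and chr9:118477939-118478188 (plus strand). Capitals mark this core, and in Cxcl10 also TGANTCA, the AP-1 motif, which does not overlap it.
Cxcl10: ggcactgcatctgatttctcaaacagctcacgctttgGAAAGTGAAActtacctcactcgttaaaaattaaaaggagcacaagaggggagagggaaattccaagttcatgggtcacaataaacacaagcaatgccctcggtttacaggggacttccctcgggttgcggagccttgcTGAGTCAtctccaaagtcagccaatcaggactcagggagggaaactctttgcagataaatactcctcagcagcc
Ifi207: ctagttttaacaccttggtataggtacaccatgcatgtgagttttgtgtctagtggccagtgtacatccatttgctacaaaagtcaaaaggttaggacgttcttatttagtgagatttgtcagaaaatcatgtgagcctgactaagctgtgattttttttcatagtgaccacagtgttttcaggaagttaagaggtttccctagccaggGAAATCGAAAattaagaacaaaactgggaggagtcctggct
Eomes: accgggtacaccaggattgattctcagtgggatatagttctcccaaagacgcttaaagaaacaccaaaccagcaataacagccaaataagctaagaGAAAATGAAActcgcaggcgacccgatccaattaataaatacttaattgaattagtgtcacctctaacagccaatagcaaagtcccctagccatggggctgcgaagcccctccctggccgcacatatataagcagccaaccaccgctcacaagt
On both strands of 300-base windows, the ISRE core was in 3 of 15 windows of the 12 higher genes that had an entry (20%), in 1 of 32 windows of lower genes (3.12%) and in 3.44% of all promoter windows. TGANTCA was in 2 of the 15, in 1 of the 32 and in 7.81% of all. These counts are small and describe letters, not binding.

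Eomes and Neurod4, genes of cortical intermediate progenitors and their young neurons, rose. Of 9 genes of intermediate progenitors and young neurons tested 2 passed, both higher, all 9 were above 0 and the median was 0.70. Of all genes, 0.114% passed as higher and 53.2% were above 0. With the animal as a replicate block neither Eomes (adjusted p = 0.0909 by limma) nor Neurod4 (adjusted p = 0.14) passed. Eomes (Tbr2), the factor that defines intermediate progenitors, measured 1.77, 2.95 and 3.16 CPM in the controls and 9.32, 10.6 and 6.76 CPM in the cKO animals (1.76, SE 0.246, adjusted p = 0.0457). Neurod4, a factor that acts as cells turn into neurons, measured 0.424, 0.627 and 0.535 CPM against 1.75, 1.74 and 1.24 CPM (1.57, SE 0.222, adjusted p = 0.0457). Neurog2, the proneural factor upstream in the same sequence, was at 1.72 (adjusted p = 0.0706) and Neurod1 at 0.70 (adjusted p = 0.081). For all 4 genes each cKO animal was above each control, which held for 12.3% of all genes tested. The rise was not seen in every library. In the rostral cKO library of T80, Eomes, at 1.499 CPM, lay inside the control rostral range of 1.344 to 1.812 CPM. Neurod4 in that library, at 0.1683 CPM, lay below every control library, of which the lowest was at 0.2138 CPM. For Eomes and Neurod4 the caudal difference exceeded the rostral one (1.85 against 1.32 and 1.56 against 1.19), the reverse of most called genes. The list's mean was 0.98, 0.29 and 0.26 in the rostral cKO libraries and 0.51, 0.92 and 0.70 in the caudal ones. Eomes did not pass without T3 (adjusted p = 0.0946) or without T6 (adjusted p = 0.0533).

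Genes of the hippocampal field were at a median of 0.20 with none of 12 past the test, led by Prox1, a factor of dentate granule cells and some interneurons, at 0.98 (adjusted p = 0.0675) and Zbtb20 at 0.68 (adjusted p = 0.0894). Both were higher in every cKO animal than in any control. Eomes is also active in the young dentate gyrus, and the part of the hippocampal share of the tissue in the progenitor genes was not tested. Tfap2c, a factor of a subset of cortical progenitors, rose by 1.24 (SE 0.17, adjusted p = 0.0452). Lmx1a, a factor of the cortical hem and the choroid plexus, rose from 0.161, 0.134 and 0.110 CPM to 0.700, 0.585 and 0.401 CPM (2.03, SE 0.294, adjusted p = 0.0495). With the animal as a replicate block neither Tfap2c (adjusted p = 0.0831 by limma) nor Lmx1a (adjusted p = 0.186) passed. Tfap2c in the rostral cKO library of T6, at 0.687 CPM, lay inside the control rostral range of 0.519 to 0.706 CPM. Lmx1a in that library, at 0.055 CPM, lay below every control caudal library.

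No gene on the lists of neurons or dividing cells passed the test. The 16 genes of cortical excitatory neurons had a median of 0.01, the 20 interneuron genes one of 0.25 and the 18 cell cycle genes one of 0.03. Radial glia genes had a median of -0.12 with none of 14 past the test. Fabp7, a fatty acid binding protein of radial glia and young astrocytes, was the lowest among these, at -0.66 (adjusted p = 0.0984), from 620, 673 and 649 CPM to 449, 333 and 446 CPM. Tnc, a matrix protein of the same cells, was above 0 at 0.43 (adjusted p = 0.0991), so that radial glia genes lay on both sides of 0.

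**Figure D3:**
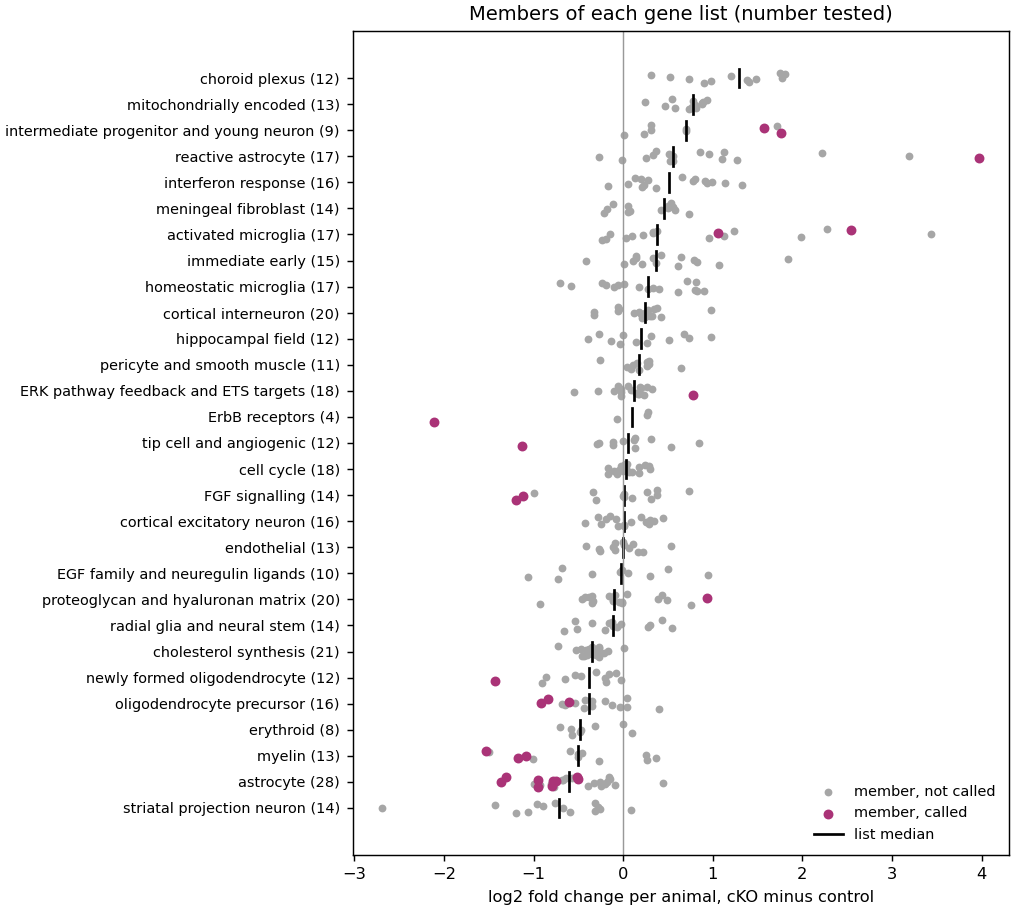
Each row is a gene list, with the number tested in brackets, and each point a member at its log2 fold change (cKO minus control, 3 animals each). Coloured points passed an adjusted p of 0.05 and black bars are list medians. Coloured points of the astrocyte, oligodendrocyte and myelin lists are all left of 0, and those of the progenitor and activated microglia lists all right of it.

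The other members of the EGFR system did not pass the test. Of the 4 ErbB receptors, Erbb4, a neuregulin receptor of interneurons, was at 0.27 (adjusted p = 0.173), Erbb3 at 0.27 (adjusted p = 0.54) and Erbb2 at -0.07 (adjusted p = 0.792). Erbb4 measured 88.8, 80.6 and 83.8 CPM in the controls and 102, 99.4 and 105 CPM in the cKO animals, which did not overlap. None of 10 ligand genes tested passed, and their median was -0.02. The ligand with the smallest p was Hbegf, at 18.1, 18.8 and 19.3 CPM against 14.99, 14.6 and 14.5 CPM (-0.35, adjusted p = 0.11). Tgfa measured 74.4, 38.9 and 53.0 CPM in the controls and 39.4, 31.0 and 33.1 CPM in the cKO animals (-0.69, adjusted p = 0.24). Its highest value, in T4, was in the animal with the highest summed level of striatal genes.

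Of 18 genes of ERK feedback and ETS targets 1 passed, and it was higher: Dusp4, a phosphatase that inactivates ERK, measured 16.5, 16.4 and 15.1 CPM in the controls and 26.1, 32.0 and 24.5 CPM in the cKO animals (0.78, SE 0.104, adjusted p = 0.0379). Etv4, an ETS factor induced by ERK, was at -0.54 (adjusted p = 0.149), from 17.0, 17.9 and 15.4 CPM to 12.3, 9.70 and 12.6 CPM. The median was 0.12, with 11 above 0 and 7 below. Over all genes tested, 53.2% were above 0 and 0.114% passed as higher. Dusp4 did not pass with the animal as a replicate block (adjusted p = 0.169 by limma). In the controls it was higher in the caudal than in the rostral pieces, by 1.3 on the log2 scale. The caudal cKO library of T3, at 22 CPM, lay inside the control caudal range of 21 to 23.8 CPM.

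Has2, a hyaluronan synthase, rose from 5.02, 6.11 and 5.18 CPM to 10.8, 11.5 and 9.05 CPM (0.94, SE 0.126, adjusted p = 0.0392), and was the 1 gene of 20 on the list of proteoglycans and hyaluronan that passed. With the animal as a replicate block its adjusted p was 0.0566 by limma. In the main test 0.114% of all genes passed as higher. Bcan, the brain proteoglycan brevican, was at -0.93 (adjusted p = 0.0894). Slco2a1, a prostaglandin carrier, rose by 0.96 (SE 0.136, adjusted p = 0.0471), and Gpr182, an atypical chemokine receptor of endothelium, by 1.38 (SE 0.2, adjusted p = 0.0496). In the block fit by limma neither Slco2a1 (adjusted p = 0.094) nor Gpr182 (adjusted p = 0.275) passed. Gpr182 in the caudal cKO library of T3, at 1.11 CPM, lay below every control caudal library. In the rostral one of T6, at 1.04 CPM, it lay inside the control rostral range of 0.687 to 1.28 CPM. Galnt6, an enzyme that starts O-linked glycans, rose from 0.538, 0.540 and 0.371 CPM to 1.66, 2.04 and 1.99 CPM (1.97, SE 0.201, adjusted p = 0.0202). Every cKO library of Galnt6 was above every control library. Ndnf rose by 0.56, Plat, the tissue plasminogen activator, by 0.63 and Fbln2, a matrix protein, by 0.72 on the log2 scale. Meg3, an imprinted long noncoding RNA, rose from 177, 181 and 206 CPM to 358, 355 and 324 CPM (0.88, SE 0.0783, adjusted p = 0.0152), with 0.90 in the rostral and 0.82 in the caudal pieces.

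The gene with the largest fitted value was Gh, growth hormone, a pituitary gene. It had 0 counts in all 6 control libraries and 11 to 22 in every cKO library, 99 in all. Pooled over the 6 cKO libraries, these counts came to 0.248 CPM, at least 32.9-fold higher than the 0.00754 CPM that 3 counts over the control group allow. Some Nestin-driven recombinase transgenes carry a growth hormone segment, and whether this one does was not tested. Gh was 0 in each library labelled control and present in each labelled cKO, so the labels and these counts matched for all 12. Both called copies of 7SK, an abundant small nuclear RNA with many copies in the genome, are uncertain. The one on chromosome 9 measured 4.82, 4.60 and 4.46 CPM in the controls and 14.1, 17.6 and 13.2 CPM in the cKO animals. Of the 68 genes, 9 had a mean under 1 CPM and 6 were model names or small RNA copies.

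The difference was larger in the rostral than in the caudal pieces for 61 of the 68 genes (89.7%), against 60.9% of all genes tested. With the 2 libraries of T3 exchanged it was larger for 58 (85.3%), against 55.1% of all genes. Slc14a1 differed most between the pieces among the astrocyte carriers, at -2.09 rostral and -0.48 caudal. A test of whether the genotype difference differed between the pieces called 0 of 21599 genes (0%) by edgeR over all 12 libraries. It found 767 at an unadjusted p under 0.05, and a lowest adjusted p of 0.263, while DESeq2 called 14. This fit did not pair the 2 libraries of an animal. With the animal as a block edgeR called 0 as well, with 943 at an unadjusted p under 0.05. For the 68 genes the adjusted p of the fit without the block was 1 throughout. The smallest p in that fit belonged to Cr2, at 0.718 to 0.840 CPM in control rostral and 3.99 to 5.67 CPM in control caudal libraries. Its cKO rostral libraries measured 4.36, 2.86 and 6.15 CPM and its cKO caudal ones 3.70, 5.40 and 3.97 CPM. The control pieces of Cr2 were thus apart and the cKO pieces overlapped, as did the position scores. Without T6 the same test called 475 genes, and with the T3 libraries exchanged it called 0, with a lowest adjusted p of 0.146.

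**Figure D4:**
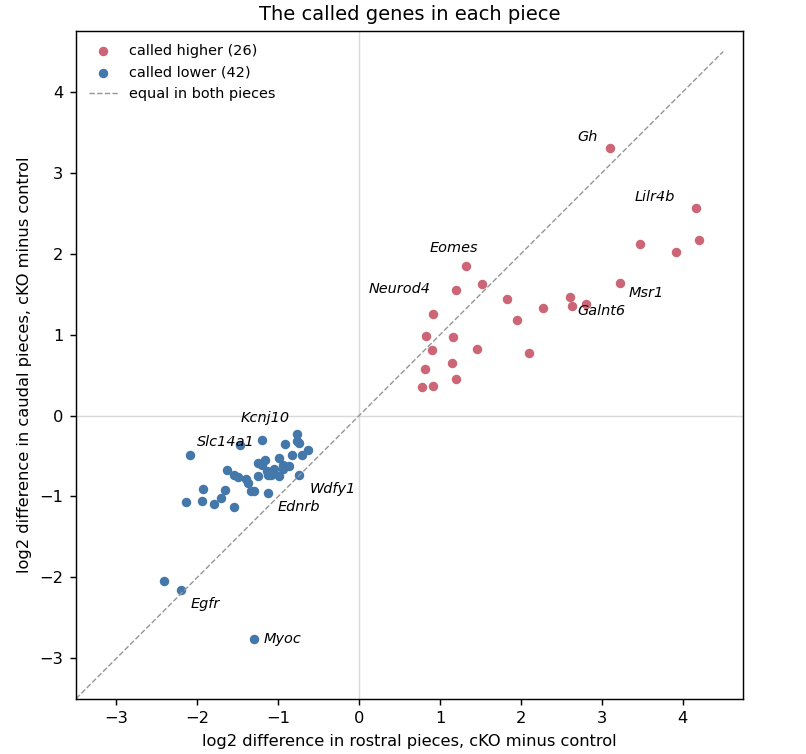
Each point is 1 of the 68 called genes, with its log2 difference (cKO minus control, 3 libraries each) in the rostral pieces on the x axis and in the caudal pieces on the y axis. All points lie in the lower left or upper right, and 61 of the 68 have the larger absolute difference in the rostral pieces. Myoc, Eomes and Neurod4 are on the caudal side of the dashed line of equality.

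RNA from neighbouring tissue differed between animals. For comparison, 53.2% of all genes tested were above 0 and 46.8% below 0. The 12 choroid plexus genes were all above 0 with a median of 1.29, and none passed. Their summed level ran from 10.8 to 117 CPM in the controls and from 91.2 to 322 CPM in the cKO animals. The 14 striatal genes had a median of -0.72 with 13 below 0 and none past the test. They summed to 682 CPM in T4, 440 and 510 CPM in T8 and T70, and 445 to 500 CPM in the cKO animals. The 14 meningeal genes had a median of 0.46 with 11 above 0, and summed to 515 to 737 CPM in the controls and 568 to 1146 CPM in the cKO animals, the highest being T80. The 8 erythroid genes tested had a median of -0.48 with 7 below 0, and the 11 pericyte genes one of 0.18. The mean of the striatal list was -0.60 in T8 and -0.64 to -0.50 in the cKO animals. None of the defining genes was at 0 (Ttr, Col1a1, Drd2 and Hbb-bs were measured in every animal). The part of choroid plexus, striatal and meningeal RNA in the called genes was not tested. Genes of the mitochondrial genome were all 13 above 0 with a median of 0.78 and none past the test. Their list mean was 1.26 in T6 but 0.23 and 0.24 in the remaining cKO animals. With these genes removed from the table, 68 genes were called as before.

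**Figure D5:**
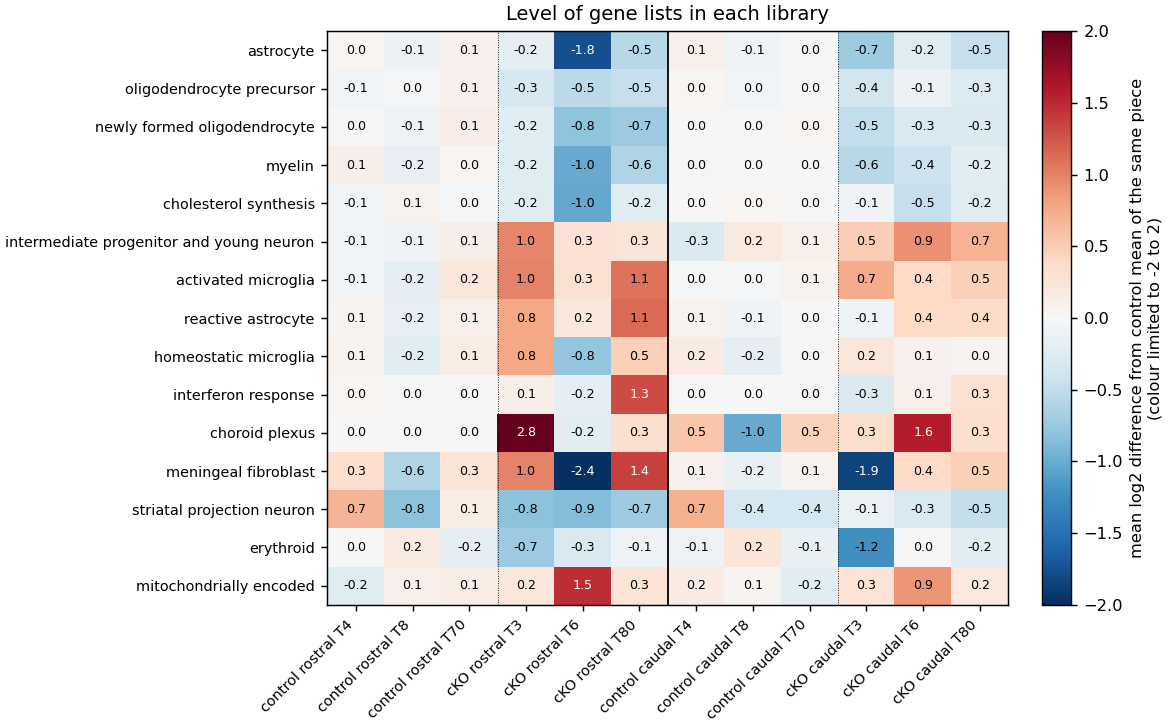
Each cell is the mean log2 difference of a gene list in 1 library from the control mean of the same piece, with rostral libraries on the left and caudal ones on the right of the black line. The astrocyte list is lowest in the cKO rostral library of T6 (-1.76), which is also high for mitochondrial genes, and the interferon list stands out in the cKO rostral library of T80 (1.30). The choroid plexus list is highest in the cKO rostral library of T3 (2.79).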

How the data were processed

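Per the labels' protocols, total RNA of cortex with hippocampal formation was taken through mRNA capture and KAPA mRNA HyperPrep library construction and read as paired ends of 50 bases. Per the submitters' processing notes, STAR 2.7.8a, featureCounts 2.0.3 and genome build GRCm39 were used, with annotation release, strand setting and treatment of multi-mapping reads not given in the sources used here. Deposited by the authors was 1 table of expected counts per library, with 55357 genes, of which 9.69% to 14.3% of the values were fractional. Values of near-identical copies and of antisense or overlapping genes are therefore uncertain.

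Counts of each library were scaled by TMM to CPM, and the rostral and caudal CPM of an animal were averaged. The mean was multiplied by its effective depth (4 divided by the sum of the reciprocal library sizes, 113368096 to 140774597 counts) and rounded. The 6 animals were fitted with edgeR 4.0.16 in R 4.3.3 (filterByExpr, TMM, robust quasi-likelihood F test), with Benjamini-Hochberg adjustment over all genes tested and a threshold of 0.05. A standard error is the log2 fold change divided by the square root of F. Values for single pieces and list means use log2 CPM, with a pseudocount of 0.5 for list means. The interaction of genotype and piece was fitted on all 12 libraries, taken singly without a term for the animal. The procedure was tested on simulated data with independent libraries, equal spread in both genotypes and no difference between pieces, unlike the data here. The labels do not tie the animals to litters, so p-values of the genotype test per animal measure the spread between these 6 animals. Those of the main interaction fit do not allow for the 2 libraries that share an animal.

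Rostral and caudal titles share their T number, which was read as the animal. Across genes, the paired libraries' deviations from the mean of their group had an r of 0.341, 0.354 and 0.383 in T4, T8 and T70, and -0.0283, 0.00102 and 0.533 in T3, T6 and T80.

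Named genes are Egfr, up to 12 higher and 12 lower genes by fold change that passed with a mean of 1 CPM or more, animals that did not overlap, 1 direction in both pieces and a symbol that is no model name, and up to 4 genes of smallest p per list. Of these, 1 gene that fell is not reported here. Other genes were named after their values were seen. The 29 lists hold 413 genes, of which 1 had no match. The comparison, the lists and the rules were chosen with earlier results of these data known. Alternatives were DESeq2 1.42.0, limma 3.58.1, other scalings and filters, summed counts, each animal left out, sex or the T number as covariates, a block for the animal and an exchange of the T3 libraries. Promoter stretches and start sites are from RefSeq (GRCm38.p6).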

Additional observations from a re-analysis of the deposited data

How the results depend on the processing

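The count of 68 called genes moved with the setting. It was 41 with counts summed as deposited, 825 by DESeq2, 33 with scaling by total library size, 387 without a filter on low counts, 4 with sex and 39 with a T number of 70 or more as a covariate. Leaving out 1 animal gave 0 to 716. The lowest counts came without a control (0, 1 and 2 without T4, T8 and T70) and the highest without the cKO animal T6. RLE scaling gave 69, upper-quartile scaling 54, limma trend 68 and a filter of 1 CPM 49. A fit of single libraries by limma voom with the animal as a replicate block (consensus correlation 0.142) called 80, of which 26 were among the 68, and 999 without the cKO rostral library of T6 or 56 without that of T3. All called genes with a value kept their direction under every alternative. Their animals did not overlap between the genotypes, so this was close to fixed in advance and lends them no separate support. Egfr ranged from -2.21 to -1.99 and passed in 19 of 20 alternatives, the exception being without T4 (-2.09, adjusted p = 0.0692). Erbb2, at -0.07 and not called, ranged from -0.20 (without T80) to 0.00137 (without T6) when an animal was left out and was at 0.0521 in the block fit without the T6 rostral library. The interaction had 0 calls with and without the replicate block, 14 by DESeq2, 2 without a filter, and 0 to 475 with 1 animal left out (1 without T3, 475 without T6). Exchanging the T3 libraries, chosen after seeing the data, gave 0. The causes of these shifts were not tested. Genes near 1 CPM or below rest on few counts per library, and with 3 animals a side a difference that missed the threshold is not shown to be absent.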

Other observations

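Further genes fell that are on none of the lists. Ttpa, the carrier of vitamin E, measured 8.45, 7.45 and 8.64 CPM in the controls and 4.37, 3.16 and 3.97 CPM in the cKO animals, a log2 fold change of -1.10 (edgeR, adjusted p = 0.0392). Tril, an accessory protein of Toll-like receptor signalling in glia, measured 79.6, 67.6 and 72.4 CPM against 39.5, 37.8 and 43.8 CPM (-0.86, adjusted p = 0.0202). Both were lower in every cKO library than in any control library. The adhesion molecule gene Vcam1 fell by 0.58, the epoxide hydrolase gene Ephx2 by 0.85, the plasmolipin gene Pllp by 0.79, the membrane protein gene Emp2 by 0.77 and the asparaginase gene Asrgl1 by 0.63 on the log2 scale.

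Immediate early genes, which neurons and other cells switch on within minutes of a stimulus, were above 0 for 14 of 15 with a median of 0.36. None passed the test, and 53.2% of all genes tested were above 0. List means of 0.11, 0.74 and 0.21 in T3, T6 and T80 made T6 the highest animal. Fosb measured 1.24, 1.02 and 1.22 CPM in the controls and 0.903, 7.68 and 3.95 CPM in the cKO animals (1.84, adjusted p = 0.257). The cKO animals of Fosb thus lay on both sides of the controls.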
